A study of Drosophila melanogaster with 6 samples.

Results

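The genes described here are 10 regulators of enteroendocrine fate in the Drosophila melanogaster midgut, chosen by name and found in the expression table by their FlyBase symbols. All 10 were found among the 17807 genes of the table: pros, tap, mirr, Ptx1, Poxn, nerfin-1, sc, ase, phyl and ttk. RNA was sequenced from GFP-positive cells sorted from dissociated adult midguts, 70 guts and at most 100000 cells per replicate. The H1 RNAi group (3 libraries) carried a temperature-sensitive esg driver (esgts), UAS-GFP and one transgene against the linker histone H1 (UAS H1 RNAi 1). The control group (3 libraries) carried the same driver and UAS-GFP without that transgene. The driver acts in esg-expressing cells, which the labels call intestinal stem cells and enteroblasts (ISC/EB). In the H1 RNAi group the same driver was thus meant to express both the RNAi and the GFP used for sorting. Whether every sorted cell of that group expressed the RNAi was not measured. Induction lasted 4 days at 29 °C by the sample labels, whereas the growth protocol has 3-day-old flies raised at 18 °C and moved to 29 °C for 1 day, with wording that speaks of inducing Dam and not of the RNAi. Fly age at collection is therefore not settled. Replicates are lettered A, B and C, with nothing on whether they were bred or dissected separately, and the spread behind each p-value may be partly technical.

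Enteroendocrine cells are the hormone-secreting cells of the gut epithelium and arise from the same stem cells as the absorptive enterocytes. In the fly midgut a short pulse of the proneural proteins Scute and Asense starts the enteroendocrine path, Notch signalling and the repressor Tramtrack hold it back, and the homeodomain protein Prospero marks and drives the committed cell. Phyllopod is the adaptor that brings Tramtrack to a ubiquitin ligase for degradation. Further transcription factors, among them Mirror and Ptx1, belong to the codes by which hormone-producing subtypes differ.

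In H1 RNAi, transcripts of mirr and tap fell to 40.1% and 40.6% of their control level, and pros, which did not pass the test, stood at 45.1% of it. The calls of mirr and tap lay close to the threshold (adjusted p = 0.0418 and 0.0463, limma). They were kept in only 5 of 14 alternative settings for mirr and 6 of 15 for tap. The proneural gene sc, the repressor gene ttk and the homeobox gene Ptx1 lay at nearly the same level in both groups. The other 4 genes, ase, phyl, nerfin-1 and Poxn, were below 1 TPM in every library. TPM is a transcript abundance normalised for gene length and library size.

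**Figure D1:**
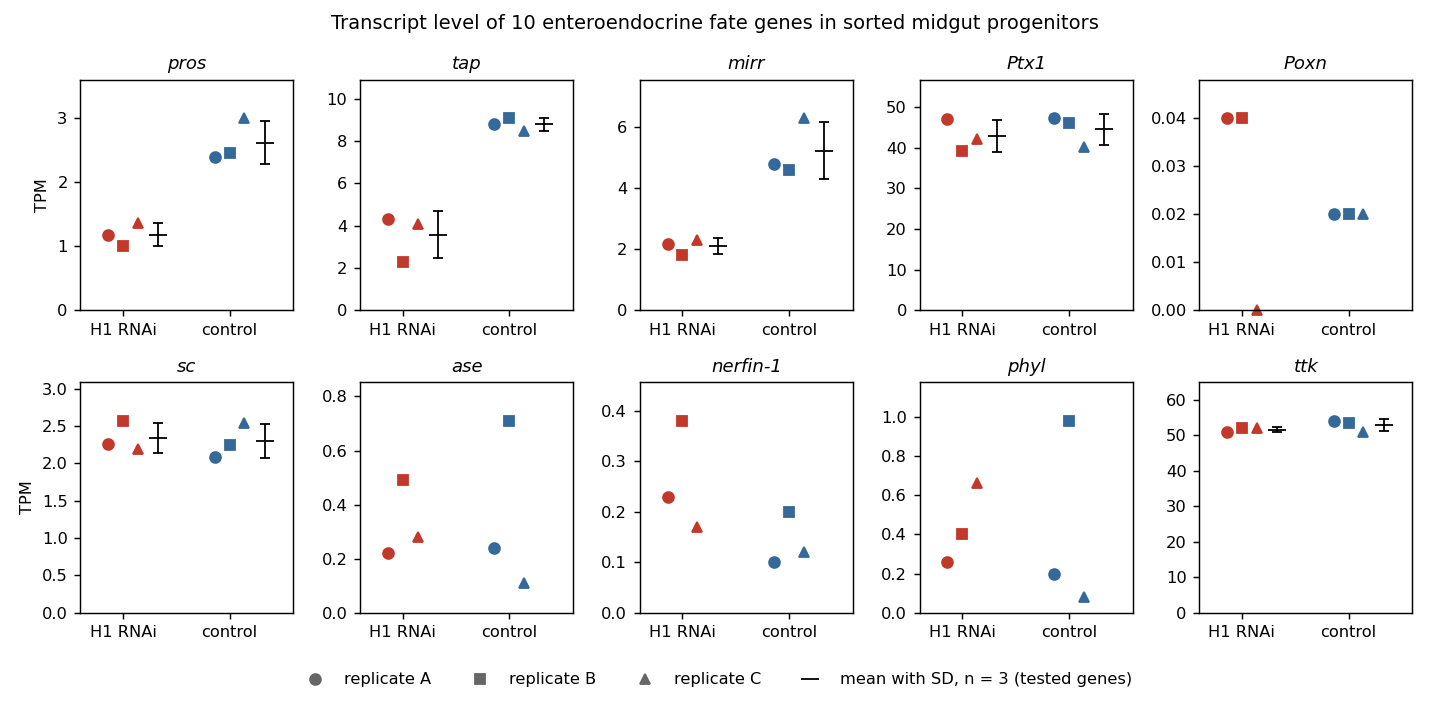
Level in TPM (vertical axis, from 0, a separate scale per gene) of the 10 fate genes in each library, with H1 RNAi in red and control in blue; symbols mark replicates A, B and C, and black bars give mean and SD for the 6 tested genes. For pros, tap and mirr every H1 RNAi library lies below every control library, while in the other panels the groups overlap.

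The RNAi target itself gave no check of the knockdown, since all 23 His1 copies were listed at 0 in all 6 libraries and the library kit selects polyadenylated RNA, which transcripts of the histone repeat normally are not. The sort was checked against marker lists. Of 13 ISC and EB markers, 12 were matched and all 12 were tested (esg matched no row and is not analysed here). Of the 12, 0 passed and 3 had an unadjusted p under 0.05 (limma), beside 1935 of all 8124 tested genes in either direction. The 3 were mira, escl and sna, all higher in H1 RNAi (log2 fold changes 0.61, 0.53 and 1.33). Of the 12 folds 6 were above 0 and 6 below. The summed level of the 12 markers was 2204 to 2397 TPM in H1 RNAi and 2093 to 2414 TPM in control. Most of it was E(spl)mbeta-HLH and Sox100B, with means of 926 and 645 TPM in H1 RNAi and 964 and 670 TPM in control. The stem cell marker Delta, the Notch ligand, was listed at 6.85, 8.64 and 4.56 TPM in H1 RNAi and at 8.76, 2.10 and 1.66 TPM in control, with overlap (log2 fold change 0.80, adjusted p = 0.378, limma). Enteroendocrine markers were present in every library as well, as described further on. Of the 10 visceral muscle and 6 hemocyte markers, 6 and 5 were below 1 TPM in every library. The enterocyte markers had a summed level of 1118 to 2028 TPM in H1 RNAi and 907 to 1914 TPM in control, highest in replicate B of each group. Of 6 trachea markers 2 were tested and 3 were below 1 TPM in every library. One of the 2, btl, was at 8.51 to 16.46 TPM in H1 RNAi and 9.64 to 19.67 TPM in control. The other, the bHLH-PAS transcription factor gene dysf, rose: it was listed at 55.95, 78.36 and 67.31 TPM in H1 RNAi and at 0, 0 and 0.02 TPM in control (adjusted p = 1.70e-05, limma). Through dysf the summed level of the trachea markers was 73.2 to 93.5 TPM in H1 RNAi and 10.9 to 21.1 TPM in control, and its part in the fate gene results was not tested.

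A gene was tested where 3 or more of the 6 libraries reached 1 TPM, which held for 8124 genes. The test was limma on log2(TPM + 1), with p-values adjusted over all 8124 genes and a threshold of 0.05. Of these, 45 genes were called lower in H1 RNAi (0.554% of those tested) and 185 higher (2.28%). Other scalings changed that split, to 49 lower and 87 higher with TMM scaling (trimmed mean of M values) and 63 lower and 83 higher with quantile normalization. Of the 10 fate genes 6 entered the test, and each of these had at least 1 TPM in every library. Of the 6, 2 were called lower, 0 were called higher and 4 did not pass (limma). With an unadjusted p under 0.05, 3 of the 6 were lower and 0 higher, while 4.75% of all tested genes were lower by that rule. In either direction, 1935 of the 8124 tested genes had an unadjusted p under 0.05 (limma). The median log2 fold change of the 6 was -0.39, beside 0.14 over all tested genes.

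**Figure D2:**
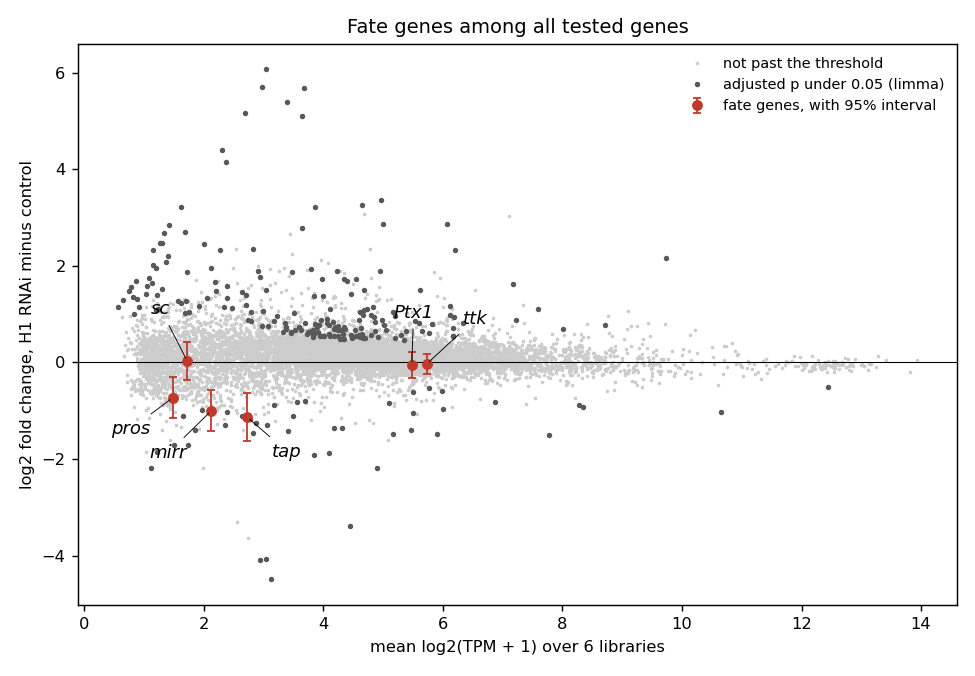
Log2 fold change of H1 RNAi against control (vertical axis) against mean log2(TPM + 1) over 6 libraries (horizontal axis) for the 8124 tested genes, dark where the adjusted p was under 0.05, with the 6 tested fate genes in red and their 95% intervals. The intervals of pros, tap and mirr lie below 0, while those of sc, Ptx1 and ttk contain 0.

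Among the factors that mark or specify enteroendocrine cells, pros encodes the homeodomain protein by which these cells are usually recognised. It lies on chromosome 3R (11328480 to 11407627, plus strand, BDGP6.54), with 6 annotated transcripts and 24892 bp of merged exons. Its level was 1.17, 1.01 and 1.36 TPM in the H1 RNAi libraries A, B and C, and 2.39, 2.46 and 3.00 TPM in the control libraries A, B and C. All 3 H1 RNAi values were below all 3 control values, a separation in this direction that 6.45% of tested genes had. The means were 1.18 ± 0.175 TPM in H1 RNAi and 2.62 ± 0.334 TPM in control (SD, n = 3 each). The log2 fold change was -0.73 ± 0.18 (SE) with a 95% interval of -1.15 to -0.31 and did not pass over all genes (adjusted p = 0.0787, limma). On the log2(TPM + 1) scale a gene this low shows less than its ratio of means, which was 0.451. With a pseudocount of 0.1 the log2 fold change was -1.09 (adjusted p = 0.0853, limma).

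The gene mirr encodes a homeodomain protein of the Iroquois family and lies on 3L (12693639 to 12710249, plus strand), with 3 annotated transcripts. The libraries A, B and C had 2.17, 1.81 and 2.30 TPM in H1 RNAi and 4.79, 4.60 and 6.29 TPM in control. The groups did not overlap, and control C stood above the other control libraries. The means were 2.09 ± 0.254 TPM in H1 RNAi and 5.23 ± 0.926 TPM in control (SD, n = 3 each), and the fall passed the threshold (log2 fold change -1.002 ± 0.18, SE, adjusted p = 0.0418, limma). Its call was lost without any single library other than control B (adjusted p 0.0825 to 0.183) and with TMM scaling or quantile normalization (0.05004 and 0.0555). The other genes of the Iroquois complex, ara and caup, were at 0.08 TPM or less in every library.

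The gene Ptx1 encodes a Pitx-type homeodomain protein and lies on 3R (30912754 to 30930682, plus strand). Values were 47.21, 39.28 and 42.28 TPM in H1 RNAi and 47.30, 46.22 and 40.22 TPM in control. The groups overlapped almost completely, with means of 42.9 ± 4.00 TPM in H1 RNAi and 44.6 ± 3.81 TPM in control (SD, n = 3 each). The log2 fold change was -0.05, with a 95% interval of -0.33 to 0.22 (adjusted p = 0.817, limma). That interval ends above the fitted log2 fold changes of mirr and pros.

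Poxn, a paired-domain gene known for specifying chemosensory bristles (2R, 15826693 to 15835055, minus strand), was listed at 0.04, 0.04 and 0 TPM in H1 RNAi and at 0.02 TPM in each control library. Values of this size are close to the rounding of the table at 2 decimals, and no fold is given. The zinc finger gene nerfin-1, known for keeping neurons differentiated (3L, 909112 to 912319), was listed at 0.23, 0.38 and 0.17 TPM in H1 RNAi and at 0.10, 0.20 and 0.12 TPM in control. The highest control value lay above the lowest H1 RNAi value. Its relative nerfin-2 was at 0.09 TPM or less in every library.

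Among the proneural genes of the basic helix-loop-helix (bHLH) class, tap, a member of the Neurogenin family, was the only one that passed the test. It lies on 3L (17359682 to 17361811, plus strand) as a single exon of 2130 bp. Its libraries had 4.33, 2.29 and 4.10 TPM in H1 RNAi and 8.80, 9.09 and 8.50 TPM in control. The control libraries lay close together, and H1 RNAi B was the lowest of its group. The means were 3.57 ± 1.12 TPM in H1 RNAi and 8.80 ± 0.295 TPM in control (SD, n = 3 each), and the fitted log2 fold change was -1.13 with an SE of 0.21 (adjusted p = 0.0463, limma). The call was lost on leaving out any of the 6 libraries (adjusted p 0.0562 to 0.145), while the log2 fold change stayed between -1.26 and -0.91. In rank among the 17807 genes, tap was 6902nd in H1 RNAi and 5637th in control.

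The gene sc, whose bHLH protein starts enteroendocrine commitment in stem cells, lies on X (396060 to 397497, plus strand) in the achaete-scute complex. It was listed at 2.26, 2.57 and 2.19 TPM in H1 RNAi and at 2.09, 2.25 and 2.54 TPM in control. The groups overlapped, and the log2 fold change of 0.02 had a 95% interval of -0.37 to 0.41 (adjusted p = 0.953, limma), with a sign that turned with TMM scaling, with quantile normalization and without H1 RNAi B or control A. The gene ase, a bHLH gene of the same complex that follows sc in neural precursors (X, 460747 to 463176), was listed at 0.22, 0.49 and 0.28 TPM in H1 RNAi and at 0.24, 0.71 and 0.11 TPM in control. Its highest value in each group was that of replicate B. The remaining proneural genes of the complex, ac and l(1)sc, had a listed value of 0 throughout, and so did the proneural genes ato, amos and cato.

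The gene phyl encodes the adaptor between Tramtrack and the ubiquitin ligase Sina (2R, 14427336 to 14432337, minus strand). Levels were 0.26, 0.40 and 0.66 TPM in H1 RNAi and 0.20, 0.98 and 0.08 TPM in control. The highest value and the 2 lowest ones were all in control, so the groups overlapped, and control B was the highest library for both phyl and ase. The repressor gene ttk (3R, 31713867 to 31735392, plus strand, 8 annotated transcripts) was listed at 50.77, 51.88 and 52.10 TPM in H1 RNAi and at 54.04, 53.34 and 50.85 TPM in control. With means of 51.6 ± 0.713 TPM in H1 RNAi and 52.7 ± 1.68 TPM in control (SD, n = 3 each) its spread was narrow in both groups. Its log2 fold change of -0.03 had a 95% interval of -0.24 to 0.18 (adjusted p = 0.863, limma). The table gives 1 value per gene, so the protein isoforms of ttk, which differ in their zinc fingers, are not told apart.

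By level in TPM in H1 RNAi, the order was ttk, Ptx1, tap, sc, mirr and pros, followed by phyl, ase, nerfin-1 and Poxn. In control it was ttk, Ptx1, tap, mirr, pros and sc, followed by the same 4 in the same order. In H1 RNAi the values of tap overlapped those of sc, and the values of sc overlapped those of mirr. In control each of ttk, Ptx1, tap and mirr had all 3 values above those of the next gene, while pros and sc overlapped. In both groups phyl overlapped ase, and ase overlapped nerfin-1. The authors' gene lengths are not known here, which bears on the order between genes, and pros has long and varied transcripts.

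Annotated neighbours and overlaps were looked up for each fate gene. Within the span of pros lie KP78a, KP78b and 3 noncoding genes, all listed at 0 in every library. The genes sc and ase lie in introns of CG32816 on the other strand, which averaged 0.06 TPM in H1 RNAi and 0.487 TPM in control. Poxn overlaps tun and Ptx1 overlaps lncRNA:CR44041 without shared exon bases. No annotated gene overlapped tap, mirr, nerfin-1, phyl or ttk. Beside pros, tap and mirr, no tested nearest protein-coding neighbour was called. CG7692, 1626 bp from tap, averaged 6.66 TPM in H1 RNAi and 4.65 TPM in control (log2 fold change 0.44, adjusted p = 0.136, limma). For mRpL40, 291 bp from pros, the log2 fold change was -0.04, and for SmD1, 23115 bp from mirr, it was 0.19.

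Genes that act on the switch between stem cell, enteroblast and enteroendocrine fate gave no call. Of 30 listed regulators 29 were matched, all but esg, and 27 tested. Of these 0 passed in either direction (limma), and the median log2 fold change was 0.03. An unadjusted p under 0.05 (limma) was found for 3 of the 27, and for 1935 of all 8124 tested genes in either direction. The ligase gene sina had means of 27.5 ± 2.83 TPM in H1 RNAi and 28.3 ± 0.917 TPM in control, and da, which encodes the common partner of proneural proteins, 61.1 ± 3.88 TPM in H1 RNAi and 66.6 ± 3.68 TPM in control (SD, n = 3 each). The smallest adjusted p values on the list belonged to mira, whose protein carries Prospero in dividing neuroblasts (log2 fold change 0.61, adjusted p = 0.118, limma), and stau (0.31, adjusted p = 0.181), with mib1 (0.41) and sli (-0.30) next. Of 15 Notch-responsive repressors 8 were tested and 0 passed (limma; 1 at an unadjusted p under 0.05). The smallest adjusted p was that of E(spl)mgamma-HLH, at 8.02 ± 1.97 TPM in H1 RNAi and 3.49 ± 1.65 TPM in control (SD, n = 3 each, adjusted p = 0.117, limma), and hry (hairy) was next (log2 fold change 0.74, adjusted p = 0.220, limma).

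Among other transcription factor genes of neural and endocrine cells, 8 of 17 were tested and 0 passed (limma). Of the 8, 1 had an unadjusted p under 0.05 (limma) and was lower in H1 RNAi. Of all 8124 tested genes 386 (4.75%) were lower by that rule. The LIM-homeodomain gene tup had the smallest adjusted p on the list. It had 2.73, 1.62 and 3.07 TPM in H1 RNAi and 5.49, 4.66 and 6.52 TPM in control (log2 fold change -0.93, adjusted p = 0.0779, limma). All of its H1 RNAi values lay below its control values. Of 15 genes related to the fate genes 13 were below 1 TPM in every library. One of the 2 tested, the bHLH gene dimm, known for the secretory character of peptidergic cells, was listed at 1.27, 1.55 and 2.32 TPM in H1 RNAi and at 2.65, 5.56 and 3.03 TPM in control. Its groups did not overlap either (log2 fold change -0.78, adjusted p = 0.157, limma).

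**Figure D3:**
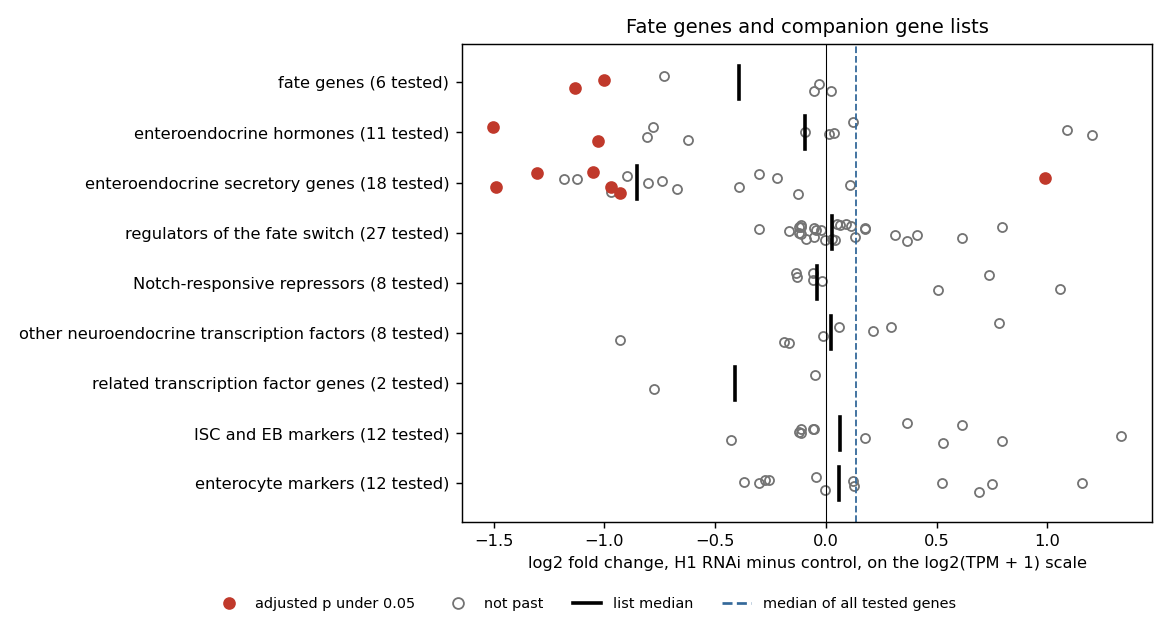
Log2 fold change of H1 RNAi against control (horizontal axis) for each tested gene of the fate genes and of 8 companion lists (rows), red where the adjusted p was under 0.05; black bars are list medians and the dashed line is the median of all tested genes, 0.14. Calls to the left of 0 occur among the fate genes, hormones and secretory genes, and the regulators of the switch centre on 0.

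Of 15 markers of enteroendocrine cells, pros among them, 14 were matched and tested (Nplp2 matched no row), and none was listed at 0. Of these 4 fell, 0 rose and 10 did not pass. The log2 fold change was below 0 for 9 and above 0 for 5, with a median of -0.68. Their summed level was 1197 to 1708 TPM in H1 RNAi and 2569 to 3394 TPM in control, without overlap. Most of it was NPF, which averaged 1139 TPM in H1 RNAi and 2309 TPM in control, where the sums averaged 1496 and 3043 TPM. The part of the lower marker sum in the lower fate gene levels was not tested. In such bulk libraries fewer cells of a type and less RNA per cell cannot be told apart.

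Among 11 tested hormone genes, Tk and NPF fell (log2 fold changes -1.50 and -1.03), 0 rose and 9 did not pass, and their median log2 fold change was -0.10. For comparison, 0.554% of all tested genes were called lower and 2.28% higher. Among 18 tested genes of peptide processing and vesicle release, 5 fell, 1 rose and 12 did not pass, and their median was -0.85. Those that fell were IA-2, a dense-core vesicle protein (34.8 ± 5.39 TPM in H1 RNAi and 99.3 ± 13.1 TPM in control), Sytbeta, a synaptotagmin (4.38 ± 0.836 TPM in H1 RNAi and 12.2 ± 1.10 TPM in control), Pal2, 7B2 and the kinesin gene unc-104 (SD, n = 3 each). The log2 fold changes of the last 3 were -1.05, -0.97 and -0.93. The one that rose was the vesicle priming gene unc-13, with a log2 fold change of 0.99. The call of IA-2 was kept without each library in turn (adjusted p 0.00504 to 0.0454, limma). Sytbeta kept its call only without H1 RNAi C or control B and unc-13 only without control A or control B, and the other 5 only without control B. The hormone genes Mip and CCHa2 had higher values in all H1 RNAi libraries than in any control library, with log2 fold changes of 1.20 and 1.09 that did not pass (adjusted p = 0.104 for each, limma), and such a rise without overlap was seen for 24.3% of tested genes.

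Many of the vesicle genes are also used by neurons. Of 12 neuron markers 7 were tested and 0 passed (limma), with a median log2 fold change of -0.72. An unadjusted p under 0.05 (limma) was found for 5 of the 7, all of them lower in H1 RNAi. Of all 8124 tested genes 386 (4.75%) were lower by that rule, and 1935 passed it in either direction. The summed level of the 12 neuron markers was 17.4 to 20.5 TPM in H1 RNAi and 26.6 to 31.8 TPM in control, without overlap. The part of this difference in the fate gene results was not tested. The smallest adjusted p values were those of the vesicle genes nSyb and Syt1, which are also on the list of secretory genes, and of the synaptic genes Nrx-1 and brp. For each of the 4, all H1 RNAi values lay below all control values, a separation in this direction that 6.45% of tested genes had. The log2 fold changes were -0.90 for nSyb, -0.80 for Syt1, -0.68 for Nrx-1 and -0.72 for brp (adjusted p 0.0779, 0.0789, 0.0789 and 0.0887, limma). The general neuronal marker elav was at 7.65 ± 0.315 TPM in H1 RNAi and 6.99 ± 0.846 TPM in control (SD, n = 3 each). ChAT and VAChT, markers of cholinergic neurons, were at 0.04 TPM or less in every library. Rbp6, a listed neuron marker that missed the filter, was higher in H1 RNAi without overlap. It had 0.88, 1.08 and 1.08 TPM in H1 RNAi and 0.08, 0.14 and 0.04 TPM in control. With no filter on low values, all 12 neuron markers were fitted and their median log2 fold change was -0.005. In that fit 0 were called lower and 1 higher (limma). Among the genes it added, fne, para, ChAT and VAChT were at 0.08 TPM or less in every library. On the log2(TPM + 1) scale such values give folds near 0, which bears on that median.

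The genes pros, tap and mirr were also set against the hormone transcripts of the same library, whose summed level was 1130 to 1609 TPM in H1 RNAi and 2401 to 3177 TPM in control. A gene at equal level in both groups has a higher ratio in H1 RNAi by construction, so Ptx1, sc and ttk were not set against them. For pros there were 0.781 to 0.894 TPM per 1000 TPM of summed hormone transcripts in H1 RNAi and 0.805 to 1.025 in control, with overlap. For tap the ratio was 2.03 to 2.89 in H1 RNAi and 2.67 to 3.79 in control, also with overlap. For mirr it was 1.43 to 1.60 in H1 RNAi and 1.61 to 1.98 in control, lower without overlap by a narrow margin. NPF supplied 78.8% to 82.7% of the hormone sum in H1 RNAi and 79.0% to 82.3% in control. Only genes that were lower in H1 RNAi were thus divided by a sum that was lower as well. Ratios near those of control follow partly from that choice. These ratios are a description and were not tested.

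**Figure D4:**
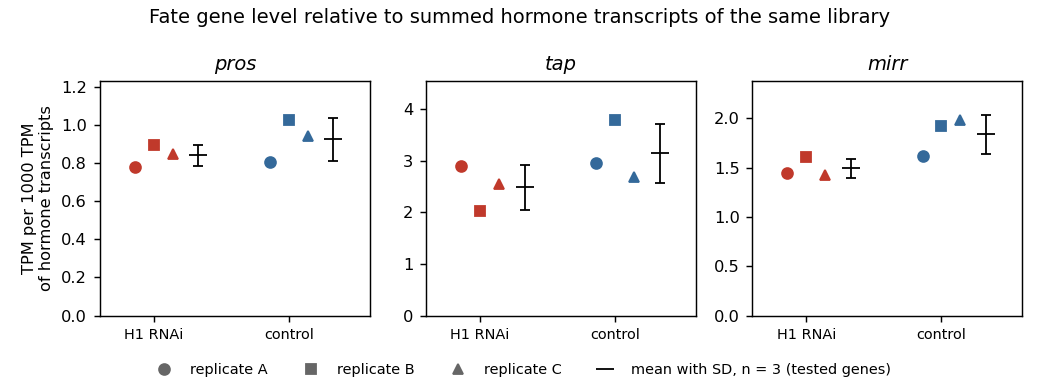
Level of pros, tap and mirr per 1000 TPM of summed hormone transcripts of the same library (vertical axis, from 0, a separate scale per gene), H1 RNAi in red and control in blue, with replicates by symbol and mean with SD (n = 3) in black. The groups overlap for pros and tap, and mirr is slightly lower in H1 RNAi. Only genes lower in H1 RNAi are shown, and the hormone sum was lower as well.

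Over the 6 libraries, the tested gene whose log2(TPM + 1) values were most like those of pros was mirr (Pearson r = 0.996), followed by CG18265 and unc79. For tap the most alike were CG5937, TrpA1 and CG9674 (r = 0.994, 0.991 and 0.990), and for mirr they were pros, Msp300 and CG34159. The 6 values differ mainly between the groups. Of the 8124 tested genes, 77 had an r above 0.95 with pros. The likeness is given as a description only.

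The calls of the fate genes lay close to the threshold. Over 14 or 15 alternatives each, the log2 fold change stayed below 0 in all of them for pros, tap and mirr. The adjusted p was under 0.05 in 1 of 14 for pros (0.0370, without variance trend and robust moderation), in 6 of 15 for tap and in 5 of 14 for mirr. No alternative gave a call for sc, Ptx1 or ttk.

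**Figure D5:**
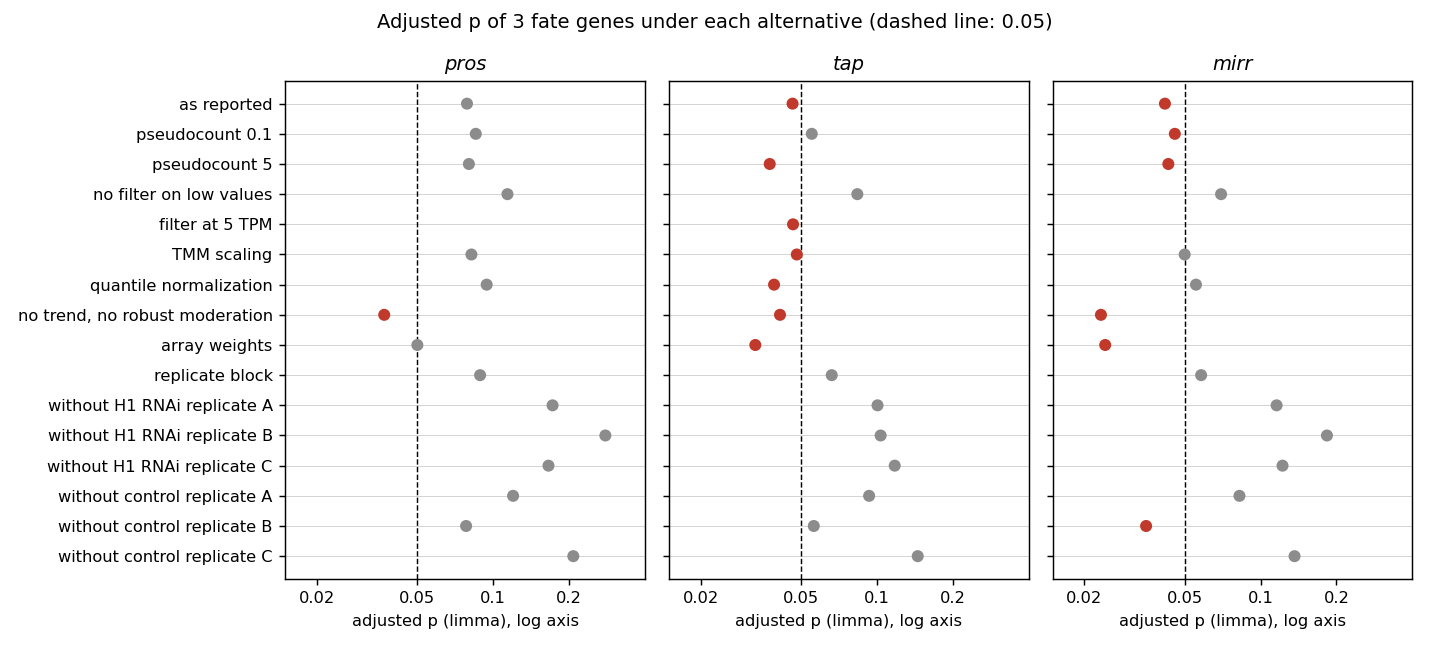
Adjusted p from limma (horizontal log axis) for pros, tap and mirr as reported and under each alternative (rows), red where under 0.05; pros and mirr have no point with a filter at 5 TPM, which removed them. Points lie on both sides of 0.05 for each gene, and pros was above it as reported. On leaving out a library, every point of pros and tap and all of mirr except that without control B lay above 0.05.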

How the data were processed

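The authors deposited 1 table of TPM per gene and library, rounded to 2 decimals. The library kit was stranded and selected mRNA, per the labels; bcl2fastq and the dm6 build are named in the submitters' processing notes. Neither aligner nor counting tool, use of strand or annotation is given in the sources used here. TPM keeps no sequencing depth, so the depth behind each value is unknown; libraries had 7767 to 8316 genes at 1 TPM or more. Of 17807 identifiers 17710 were paired with a symbol (5 listed names under newer symbols, by RefSeq synonyms), and positions from Ensembl release 115 on BDGP6.54 (dm6 coordinates, 1-based).

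H1 RNAi was compared with control in limma 3.58.1 (R 4.3.3) on log2(TPM + 1), with a variance trend, robust moderation and Benjamini-Hochberg adjustment over 8124 genes, two-sided; the procedure was tested on simulated data. Alternatives were pseudocounts of 0.1 and 5, no filter or a filter at 5 TPM, TMM scaling (trims 0.3 and 0.05), quantile normalization, moderation without trend, weights per library, a replicate block by letter, and omission of single libraries. An exact permutation test of 3 against 3 libraries cannot go below p = 0.1 and was not used. Fate genes and lists were chosen with earlier results of these data known. All 10 fate genes are named, with the called members of each list or up to 4 with the smallest adjusted p, and the 3 genes most like pros, tap and mirr. Delta, Mip, CCHa2, sina, da, elav, ChAT, VAChT, fne, para, Rbp6, vn, srp, btl, Sox100B, E(spl)mbeta-HLH and genes in the same complex or overlapping were named after their values were seen. Figures used Python 3.11.15 and matplotlib 3.10.9.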

Additional observations from a re-analysis of the deposited data

How the results depend on the processing

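The count of fate genes called lower was 2 as reported. It was 1 with a pseudocount of 0.1, a filter at 5 TPM, TMM scaling or quantile normalization, 0 with no filter and 0 with the replicate block, and 0 to 1 on leaving out each library. It was 3 without trend and robust moderation, and 2 with a pseudocount of 5 or array weights. No alternative gave a fate gene called higher. Calls over all genes were 230 as reported, 90 with no filter, 136 with TMM scaling, 146 with quantile normalization, 547 with array weights, 142 with the replicate block and 29 to 450 on leaving out a library (450 without control B, 29 without H1 RNAi B). Calls among the hormone and secretory genes were 8 as reported, 2 with no filter, 5 with TMM scaling, 4 with quantile normalization, 11 with array weights, 9 with the replicate block and 1 to 10 on leaving out a library. The replicate letters were not taken as pairs, because the labels do not say that they mark a shared batch. Deviations from the group means correlated at 0.40 for A, 0.14 for B and 0.09 for C. Between different letters the correlation was 0.17 for H1 RNAi C with control B and otherwise negative (-0.28 to -0.001). Whether the letters mark pairs is thus not settled. TMM scaling moved the median over all tested genes to a log2 fold change of 0.01, against 0.14 as deposited. The cause of these changes was not tested, except that with no filter the adjustment ran over 13713 genes. Genes below 1 TPM cannot be compared here, because TPM rounded to 2 decimals gives no depth.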
